A study of Mus musculus with 6 samples.

Results

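The extracellular matrix of the airway wall is cut and remodelled by zinc proteases, and transcripts for these enzymes and their inhibitors were followed here in mouse tracheal mesenchyme at 48 h post injury (48 hpi). The genes were taken from a list of 44 names covering matrix metalloproteinases (MMPs), ADAM and ADAMTS proteases, ADAMTS-like proteins, the tissue inhibitors of metalloproteinases (TIMPs) and Reck. Of these, 40 were measured, by 80 probe sets, among the 18193 genes on the arrays that could be named. Mmp15, Mmp25, Adamts2 and Adamts17 were not analysed here.

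Adult male C57Bl/6 mice inhaled sulfur dioxide (SO2) at 500 ppm for 4 h, a gas injury after which the luminal cells of the airway are shed, and tracheas were taken 48 h later. The 3 samples at 48 hpi are set against 3 control samples from uninjured mice of the same strain and sex. Each sample pooled tracheas of 4 mice, so every p-value below measures the spread between pools and not between single animals. After 23 min in dispase the epithelium was peeled away, and RNA of all the remaining tissue was hybridized to 1 Affymetrix mouse genome array per sample. No cells were sorted, so the samples hold cartilage, fibroblasts, smooth muscle, vessels, nerve and any leukocytes present, and in such bulk samples a change in the number of cells of a type and a change in RNA per cell cannot be told apart.

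MMPs are made as inactive zymogens, and once activated they cut collagens, proteoglycans and other matrix proteins. The membrane-type MMPs act at the cell surface. ADAMs are membrane proteases with a disintegrin domain, several of which release the outer part of growth factors, cytokine receptors and adhesion proteins, a process called shedding. ADAMTS proteases are secreted, carry thrombospondin repeats and cut aggrecan, versican and procollagens, whereas the ADAMTS-like proteins resemble them but have no protease domain. TIMPs block the active site of these enzymes, and Reck is a membrane-anchored inhibitor of several MMPs.

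At 48 hpi the main rises were in 1 inhibitor and in a few proteases. Timp1, Adam12, Mmp19, Adam8, Mmp3, Adamts4, Adam9, Mmp23 and Adam10 rose and Reck fell, whereas Timp2 and Timp3 had lower values at 48 hpi that did not pass the test. A gene was called changed where its adjusted p in limma, over all 45037 probe sets tested, lay under 0.05. By this rule 9 of the 40 measured genes rose (22.5%, against 4.97% of all genes tested) and 1 fell (2.5%, against 1.24%). Shares of all genes, here and below, include genes too dim for a change to show readily, and shares without them were not computed. The median log2 fold change was 0.15 over the 40 genes and -0.01 over all genes. Of the 9 that rose, 6 did so by over 2-fold, which 2.11% of all genes did. Values are given on the log2 scale throughout, so that 1 unit is a doubling, and per-sample values run through replicates 1, 2 and 3 of each group.

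Several of the MMP genes are neighbours in the genome, and their promoters are shown first because they share a sequence. Only Mmp3 among them was called, and most of the others measured were near the limit of these arrays. In the RefSeq annotation a row of 10 MMP genes lies on chromosome 9 with no other protein-coding gene between them, in the order Mmp13, Mmp12, Mmp1b, Mmp3, Mmp1a, Mmp10, Mmp8, Mmp27, Mmp20 and Mmp7. The letters TGANTCA, the consensus bound by AP-1 (Fos and Jun proteins), were searched on both strands of the 250 bases before each start. They were found in 8 of the 10 genes, all but Mmp8 and Mmp27, and in 6.75% of the 32851 promoters in the RefSeq table (build GRCm38.p6). The 80 bases before the start are printed for the 5 genes that are on the list of 44, with AP-1 and TATA box (TATAAA) letters in capitals. They lie on the plus strand at chr9:7272434-7272513 for Mmp13, chr9:7347294-7347373 for Mmp12, chr9:7445742-7445821 for Mmp3, chr9:7502262-7502341 for Mmp10 and chr9:7692010-7692089 for Mmp7. Mmp12 and Mmp7 have 2 annotated starts each, and the one whose window holds the match is shown.
Mmp13: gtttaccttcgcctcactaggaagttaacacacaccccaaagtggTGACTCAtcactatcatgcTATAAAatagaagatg
Mmp12: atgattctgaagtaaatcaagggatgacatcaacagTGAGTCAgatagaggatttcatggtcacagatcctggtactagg
Mmp3: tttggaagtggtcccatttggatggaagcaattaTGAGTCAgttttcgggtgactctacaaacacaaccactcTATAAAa
Mmp10: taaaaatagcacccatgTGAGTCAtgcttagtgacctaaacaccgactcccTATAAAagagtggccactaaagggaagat
Mmp7: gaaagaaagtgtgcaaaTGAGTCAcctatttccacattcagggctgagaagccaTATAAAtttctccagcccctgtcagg
The AP-1 letters begin 35 bases before the start in Mmp13, 44 in Mmp12, 46 in Mmp3 and 63 in both Mmp10 and Mmp7. A match of letters is not a binding site, and no binding was measured.

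The same search was run in the promoters of all listed genes, of which 26, the 5 cluster genes included, had a sequence in the table. AP-1 letters were found in 6 of the 26, the 5 cluster genes and Adam19. Ets letters (CAGGAAG) were found in 8 of the 26 and in 10.8% of all promoters, and SP1 letters (GGGCGG) in 17 of the 26 and in 32.7%. TATA letters stood in 6 of the 26 and in 12.4% of all promoters. STAT letters (TTCCNGGAA) were found only in Mmp23 among the 26, and in 0.913% of all promoters. The NF-kB consensus was found in 0 of the 26 and in 1.41% of all promoters, which says only that these letters are not in these windows. No searched motif contains another. Of the 5 genes that rose and had a sequence, 3 held Ets letters, 3 held SP1 letters, and 1 each held AP-1, STAT and TATA letters.

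The inhibitors Timp1 and Reck moved in opposite directions, and the 250 bases before the start of each are printed for comparison, with Ets and SP1 letters of either strand in capitals. The Timp1 window is chrX:20869916-20870165 and the Reck window chr4:43875280-43875529, both on the plus strand of GRCm38.p6.
Timp1: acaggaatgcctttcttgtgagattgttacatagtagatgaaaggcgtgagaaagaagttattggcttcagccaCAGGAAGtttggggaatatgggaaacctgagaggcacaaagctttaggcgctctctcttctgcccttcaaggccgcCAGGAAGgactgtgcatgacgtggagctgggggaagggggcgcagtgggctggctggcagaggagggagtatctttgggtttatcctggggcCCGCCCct
Reck: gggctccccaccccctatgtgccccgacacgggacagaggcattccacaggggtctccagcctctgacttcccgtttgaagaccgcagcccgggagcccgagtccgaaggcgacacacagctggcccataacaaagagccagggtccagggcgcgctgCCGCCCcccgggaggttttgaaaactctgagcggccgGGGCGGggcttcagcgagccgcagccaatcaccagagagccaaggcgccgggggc
Timp1 held the Ets letters at 2 places, beginning 176 and 100 bases before the start, and the SP1 letters at 1 place close to the start. Reck held SP1 letters at 2 places, beginning 92 and 55 bases before the start, and no Ets letters. Ets letters also stood before Timp3 and Timp4, beginning 205 and 111 bases before the start. Both had lower means at 48 hpi, with log2 fold changes of -0.53 and -0.19, and neither was called by the rule above. Whether any of these letters bear on expression was not tested.

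Before the members are described, the cell types in these samples need to be set out. Marker counts stand beside 4.97% of all genes that rose and 1.24% that fell. All 11 fibroblast and all 12 chondrocyte markers measured lay above the bound for dim genes in both groups. Of 14 monocyte and macrophage markers 11 rose and 0 fell, with a summed linear level of 12724 to 18236 at 48 hpi and 11939 to 13517 in controls. Lyz2, which was not called (log2 fold change -0.43), makes up much of that sum, and the other 13 markers summed to 7052 to 8588 at 48 hpi and 2859 to 3358 in controls. Of 9 neutrophil markers 3 rose, S100a8 (4.27), S100a9 (4.13) and Csf3r (1.12 on the log2 scale), and Cxcr2, Mmp8 and Camp were dim in both groups. The list's summed level was 9349 to 14210 at 48 hpi and 11726 to 14903 in controls, most of it from Ltf, which is on the epithelial list too, and the other 8 markers summed to 1841 to 4299 at 48 hpi and 337 to 508 in controls. Dim means a mean under 5.05, the 95th percentile of the means of 80 olfactory and vomeronasal receptor probe sets, genes that tracheal mesenchyme is not known to use. Of 12 chondrocyte markers 4 fell and 0 rose, with sums of 29433 to 36369 at 48 hpi and 45222 to 51408 in controls that did not overlap.

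All 9 cell division genes measured rose, with sums of 2651 to 3659 at 48 hpi and 271 to 367 in controls. None of 13 airway epithelial markers passed the test. Their summed level was 7688 to 19707 at 48 hpi and 19508 to 27391 in controls, but the 11 markers other than Scgb1a1 (-2.57) and Ltf (-0.75) summed to 1779 to 3589 at 48 hpi and 1533 to 2953 in controls, which overlap. The genes left out of these 3 sums were chosen after their values were seen. Epcam and Krt5 lay above the dim bound in both groups, so signal of epithelial genes remained in the mesenchyme samples. Of 11 fibroblast markers 0 rose and 2 fell, and of 7 smooth muscle markers 0 changed. Endothelial markers gave 2 of 8 that rose, with sums of 2224 to 2689 at 48 hpi and 1676 to 2038 in controls. Of 4 Schwann cell markers 1 fell, and of 7 mast cell, 7 lymphocyte and 4 adipocyte markers 0 passed. With the replicate number as a block, 9 of 12 chondrocyte markers fell, 3 fibroblast markers rose and 3 fell, 3 mast cell markers (Cpa3, Mcpt4 and Fcer1a) and 2 adipocyte markers rose, and 2 Schwann cell markers fell. Of the 13 epithelial markers, 1 rose with the block, Krt19 (0.80, adjusted p = 0.0246), and 1 fell, Scgb1a1 (-2.57, adjusted p = 0.0146). Rises with the block also numbered 12 of 14 macrophage, 4 of 9 neutrophil and 3 of 8 endothelial markers. The neutrophil marker added by the block was Mmp9, which with Mmp8 is also counted among the related genes below. Of all genes, 8.77% rose and 4.64% fell with the block. The part of these cell types in the changes described below was not tested.

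**Figure D1:**
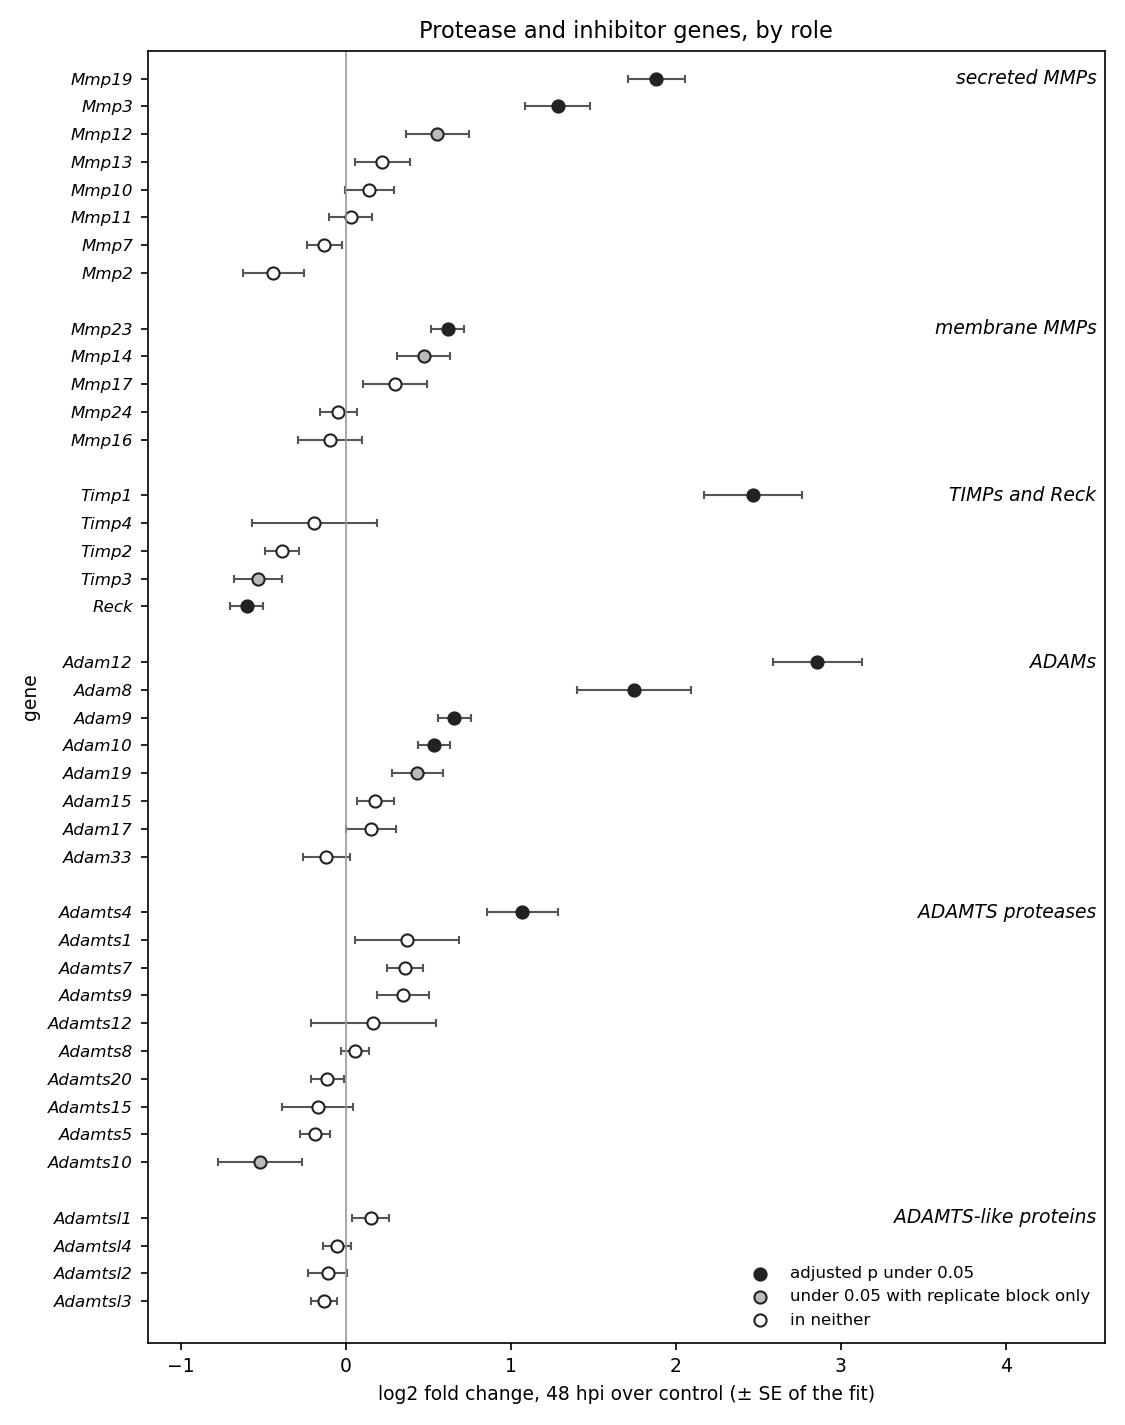
Log2 fold change at 48 hpi over control (horizontal axis) of the 40 measured genes, arranged by role down the page; points are fitted values and bars are standard errors of the fit (n = 3 pools per group). Black points passed adjusted p 0.05, grey points passed only with the replicate number as a block, and white points passed in neither. Adam12 at 2.86 and Timp1 at 2.47 stand farthest to the right, and Reck at -0.60 farthest to the left. The control mean of Adam12 was close to the bound for dim genes.

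Among the inhibitors, Timp1 rose 5.53-fold and the other 4 genes of this group had lower means at 48 hpi, of which Reck alone passed the test. The median over the group was -0.38, with 1 gene of 5 called higher and 1 called lower (20% each, beside 4.97% and 1.24% of all genes). Timp1, a secreted inhibitor of most MMPs, had values of 12.34, 12.30 and 12.81 at 48 hpi, against 9.32, 10.45 and 10.27 in controls. Every 48 hpi pool lay above every control pool, and control replicate 1 was the lowest sample. The means were 12.48 ± 0.28 at 48 hpi and 10.01 ± 0.61 in controls (SD, n = 3 each), a log2 fold change of 2.47 ± 0.30 (SE) with adjusted p = 0.00703. It passed the test whichever single pool was left out, with adjusted p up to 0.0405.

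Reck, which restrains Mmp2, Mmp9, Mmp14 and Adam10 at the cell surface, had values of 10.26, 10.10 and 10.11 at 48 hpi, against 10.86, 10.61 and 10.79 in controls. The groups did not overlap, and the gap between their means was larger than the range within either. Reck fell by 0.60 on the log2 scale (SE 0.10, adjusted p = 0.0222). Its direction held in all 6 fits that left out 1 pool, but it passed in 2 of them, those without 48 hpi replicate 1 or control replicate 2, and adjusted p reached 0.103.

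Timp3, which is bound to the matrix and also inhibits Adam17 and the aggrecanases, had values of 12.27, 12.11 and 11.73 at 48 hpi, against 12.69, 12.55 and 12.47 in controls. All 3 values at 48 hpi were below the controls, with a difference of -0.53 ± 0.15, which passed with the replicate number as a block (adjusted p = 0.0214) and not without it (adjusted p = 0.103). Its 4 probe sets all gave values below 0. Timp2, which both inhibits Mmp2 and takes part in its activation by Mmp14, had values of 11.70, 11.79 and 11.48 at 48 hpi, against 12.05, 11.98 and 12.09 in controls. These groups did not overlap either, but the log2 fold change of -0.38 ± 0.10 did not pass in the fit (adjusted p = 0.0949) or with the block (adjusted p = 0.0641). Its probe sets disagreed in part. Values were below 0 in 4 of 6, and that at -0.58, which was not used, passed with the block (adjusted p = 0.0228) but not without it (adjusted p = 0.131). The 2 above 0 were a bright probe set that was level (0.005) and a probe set dim in both groups (0.18). Timp4 was spread widely at 48 hpi, from 7.49 to 8.94, across its control range of 7.97 to 8.46, and its 2 probe sets had opposite signs. The chondrocyte marker sums given above were also lower at 48 hpi, as were the values of Reck, Timp2 and Timp3, and whether these go together was not tested.

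Among the 8 ADAM genes, 4 rose and 0 fell (50% and 0%, beside 4.97% and 1.24% of all genes), and 7 had log2 fold changes above 0 (median 0.49). Adam12, a sheddase of mesenchymal cells that is known to cut heparin-binding EGF-like growth factor and insulin-like growth factor binding proteins, showed the largest log2 fold change of the 40 genes. It had values of 7.76, 7.93 and 8.74 at 48 hpi, against 5.01, 5.24 and 5.62 in controls. The lowest pool at 48 hpi lay above the highest control by more than the whole range of either group. The means were 8.15 ± 0.52 at 48 hpi and 5.29 ± 0.31 in controls (SD, n = 3 each), with a log2 fold change of 2.86 ± 0.27 (7.25-fold, adjusted p = 0.00256), and it passed in all 6 fits that left out 1 pool. Control replicate 1, at 5.01, lay under the dim bound of 5.05, and the control mean of 5.29 was close to that bound. The size of the Adam12 rise is therefore less well fixed than its direction. The second Adam12 probe set was dim in both groups, and its log2 fold change of 0.75 missed the threshold (adjusted p = 0.13).

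Adam8, which is best known from leukocytes, had values of 7.78, 7.26 and 8.63 at 48 hpi, against 6.55, 5.83 and 6.04 in controls. The groups were apart, but replicate 3 at 48 hpi was well above the other two. The log2 fold change was 1.75 ± 0.35 (adjusted p = 0.0391), and it remained past the threshold only without 48 hpi replicate 2 among the 6 fits that left out 1 pool, with adjusted p up to 0.129. The macrophage markers counted above rose in the same samples, 11 of 14, and their part in the Adam8 value was not tested.

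Adam9, a widely expressed sheddase, had values of 9.91, 9.83 and 10.02 at 48 hpi, against 9.13, 9.28 and 9.38 in controls. Its pools were tight within each group, and the log2 fold change of 0.66 ± 0.10 passed (adjusted p = 0.0163), but not without 48 hpi replicate 1, 48 hpi replicate 3 or control replicate 2 (adjusted p up to 0.0782). Adam10, the sheddase that makes the first cut of activated Notch, had values of 9.69, 9.67 and 9.81 at 48 hpi, against 9.17, 9.33 and 9.06 in controls. The difference of 0.54 ± 0.10 passed narrowly (adjusted p = 0.0318), in 1 of the 4 Adam10 probe sets, and the call was lost when any 1 pool other than control replicate 2 was left out (adjusted p up to 0.134) and when the probe sets were averaged.

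Adam17, which sheds tumour necrosis factor and several EGF receptor ligands, did not pass. Its values were 8.40, 8.66 and 8.71 at 48 hpi, against 8.14, 8.56 and 8.61 in controls, ranges that overlapped. The log2 fold change was 0.15 ± 0.15 (adjusted p = 0.635), and its other 2 probe sets gave values below 0. Adam19, a relative of Adam12 that cuts neuregulin, had values of 7.49, 7.84 and 8.04 at 48 hpi, against 7.23, 7.31 and 7.53 in controls. Here 1 pool at 48 hpi fell within the control range, and the difference of 0.44 ± 0.16 passed with the block (adjusted p = 0.0340) but not without it (adjusted p = 0.189). Adam15 and Adam33 had log2 fold changes of 0.18 and -0.12 and passed in neither fit.

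**Figure D2:**
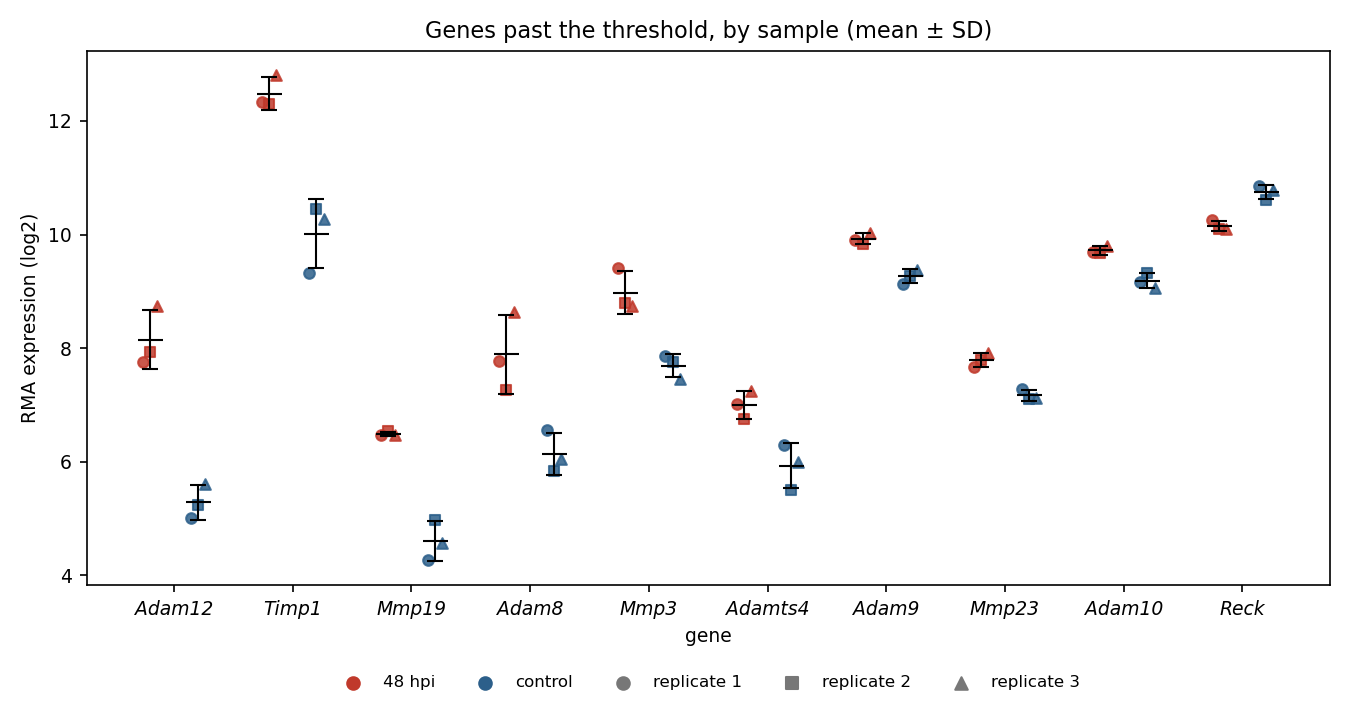
RMA expression (log2, vertical axis) of the 10 genes past adjusted p 0.05 in each pool, with 48 hpi in red to the left of control in blue for each gene; symbols mark the replicate number, and black bars give the mean ± SD (n = 3). For Adam12, values at 48 hpi run from 7.76 to 8.74 and in controls from 5.01 to 5.62, and the Adam8 pools at 48 hpi are the most widely spread.

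Of the 8 secreted MMPs, 2 rose and 0 fell (25% and 0%, beside 4.97% and 1.24% of all genes), with a median of 0.18. Mmp19, which cuts proteins of basement membranes, had values of 6.47, 6.53 and 6.47 at 48 hpi, against 4.27, 4.98 and 4.57 in controls. The 3 pools at 48 hpi were almost equal, and all 3 controls were below the dim bound. Its log2 fold change was 1.88 ± 0.17 (adjusted p = 0.00212), and measured against the bound the rise was at least 2.71-fold. Both Mmp19 probe sets passed, and the call held in all 6 fits that left out 1 pool.

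Mmp3, or stromelysin 1, which cuts many matrix proteins and activates other MMP zymogens, had values of 9.41, 8.79 and 8.73 at 48 hpi, against 7.86, 7.76 and 7.46 in controls. The groups did not overlap, and replicate 1 was the highest pool in both groups. The means were 8.98 ± 0.37 at 48 hpi and 7.69 ± 0.21 in controls (SD, n = 3 each), and the log2 fold change was 1.28 ± 0.20 (adjusted p = 0.0170). The call was lost without control replicate 2 or control replicate 3, with adjusted p up to 0.0674.

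Mmp3 was the only gene called among the 9 measured genes of the chromosome 9 row, whereas the 8 others had log2 fold changes of -0.15 to 0.56. Mmp12, the macrophage elastase, was the highest of those 8, with values of 4.44, 3.81 and 4.28 at 48 hpi, against 3.62, 3.37 and 3.88 in controls. Both groups were dim and overlapped, and the difference of 0.56 ± 0.19 passed with the block alone (adjusted p = 0.0241, and 0.176 without it). Mmp13, a collagenase of cartilage and bone, had a log2 fold change of 0.22 ± 0.17 (adjusted p = 0.529). Mmp7 and Mmp10, a matrilysin and a stromelysin, were dim in both groups, with log2 fold changes of -0.13 and 0.14. Mmp1a, Mmp1b, Mmp8 and Mmp20 were also dim in both groups, so that Mmp13 alone of the 8 lay above the bound. AP-1 letters stood before Mmp3, which was called, and before neighbours that were not, most of them dim. A change in a dim gene may not show on these arrays, and whether the letters bear on expression was not tested.

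Mmp2, or gelatinase A, a product of fibroblasts, had values of 11.25, 11.73 and 11.46 at 48 hpi, against 11.57, 12.01 and 12.18 in controls. The groups overlapped by 1 pool, since control replicate 1 was below 48 hpi replicate 2. Its log2 fold change of -0.44 ± 0.19 did not pass (adjusted p = 0.262) and missed the threshold narrowly with the block (adjusted p = 0.0525). The second Mmp2 probe set, which was not used, also gave -0.44 and passed with the block (adjusted p = 0.0449) but not without it (adjusted p = 0.218). Mmp11 was close to level, at 0.03 ± 0.13.

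Of the 5 membrane MMPs measured, 1 rose and 0 fell (20% and 0%, beside 4.97% and 1.24% of all genes), with a median of 0.30. Mmp23, whose product has a cysteine-rich array and a membrane anchor at its amino end, had values of 7.67, 7.78 and 7.91 at 48 hpi, against 7.29, 7.10 and 7.13 in controls. The groups were apart, with a log2 fold change of 0.62 ± 0.10 (adjusted p = 0.0208) in 1 of its 2 probe sets, and when 1 pool was left out it passed only without 48 hpi replicate 1 or control replicate 1 (adjusted p up to 0.0899). Mmp14, the membrane-type MMP that activates Mmp2, had values of 10.47, 11.00 and 10.91 at 48 hpi, against 10.16, 10.28 and 10.51 in controls. One pool at 48 hpi lay just under the highest control. The log2 fold change was 0.47 ± 0.16 (adjusted p = 0.170) and passed with the block (adjusted p = 0.0371), and its other 2 probe sets gave 0.53 and 0.65. Mmp16, Mmp17 and Mmp24 ran from -0.10 to 0.30 and passed in neither fit by the probe set used. All 4 Mmp16 probe sets gave values below 0. Those at -0.42 and -0.75, which were not used, passed with the block (adjusted p = 0.0274 and 0.0212) but not without it (adjusted p = 0.309 and 0.133).

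Of the 10 ADAMTS proteases measured, 1 was called higher and 0 lower (10% and 0%, beside 4.97% and 1.24% of all genes), with a median of 0.11. Adamts4, an aggrecanase that also cuts versican, had values of 7.02, 6.75 and 7.24 at 48 hpi, against 6.30, 5.51 and 5.99 in controls. The groups did not overlap, and the log2 fold change was 1.07 ± 0.21 (adjusted p = 0.0405), close to the threshold. Both Adamts4 probe sets passed, the second with a log2 fold change of 1.31, but the call was lost when any 1 pool other than control replicate 1 was left out (adjusted p up to 0.157).

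Adamts5, the other main aggrecanase of mouse cartilage, did not follow it. It had values of 8.79, 8.89 and 8.71 at 48 hpi, against 8.90, 8.98 and 9.07 in controls. Although the groups just failed to overlap, the log2 fold change was -0.19 ± 0.09 and did not pass (adjusted p = 0.333). The difference between the Adamts4 and Adamts5 changes was not itself tested. Adamts1, which cuts versican, had values of 9.59, 10.01 and 9.43 at 48 hpi, against 9.57, 9.78 and 8.57 in controls. Control replicate 3 stood well below the rest, and the log2 fold change of 0.37 ± 0.32 did not pass (adjusted p = 0.577). That pool also had the lowest summed level of smooth muscle markers, 15654, where the other 5 pools had 26758 to 35904, and whether this bears on Adamts1 was not tested.

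Adamts10, which binds fibrillin microfibrils, had values of 7.60, 8.35 and 8.20 at 48 hpi, against 8.10, 8.78 and 8.82 in controls. The groups overlapped because both replicates numbered 1 were low, and within each number the pool at 48 hpi was lower, with differences of -0.50, -0.43 and -0.62. Without the block the log2 fold change of -0.52 ± 0.26 missed the threshold (adjusted p = 0.331), and with it the change passed (adjusted p = 0.0164), and its second probe set had the opposite sign. Of the other 6 ADAMTS proteases, Adamts7, Adamts8 and Adamts20 were dim in both groups. By the probe sets used, Adamts9, Adamts12 and Adamts15 had log2 fold changes of 0.35, 0.17 and -0.17. Adamts9 was above 0 in all 3 of its probe sets. That at 0.67, which was not used, passed with the block (adjusted p = 0.0125) but not without it (adjusted p = 0.227). By the probe sets used, the 4 ADAMTS-like genes lay between -0.13 and 0.15 with 0 called in limma, and 0 at an unadjusted p under 0.05. All 3 Adamtsl1 probe sets gave values above 0. Its probe set at 0.47, which was not used, passed with the block (adjusted p = 0.0238) and missed narrowly without it (adjusted p = 0.0504).

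The replicate number mattered for several genes because same-numbered pools deviated together. With the number as a block, 12 of the 40 genes rose (30.0%, against 8.77% of all genes) and 3 fell (7.5%, against 4.64%). All 10 genes called without the block were among these 15, and Mmp14, Adam19, Mmp12, Timp3 and Adamts10 were added. Within each number, Mmp14 was higher at 48 hpi by 0.31, 0.72 and 0.39 and Timp3 was lower, with differences of -0.42, -0.44 and -0.73. By the probe set used, the remaining 25 genes passed in neither fit, with log2 fold changes of -0.44 to 0.37 and adjusted p from 0.0949 to 0.932. Without a test, 10 genes had all 3 pools at 48 hpi above all controls (25.0%, against 17.2% of all genes) and 5 had all 3 below (12.5%, against 13.1%), so that lack of overlap alone says little about these genes.

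**Figure D3:**
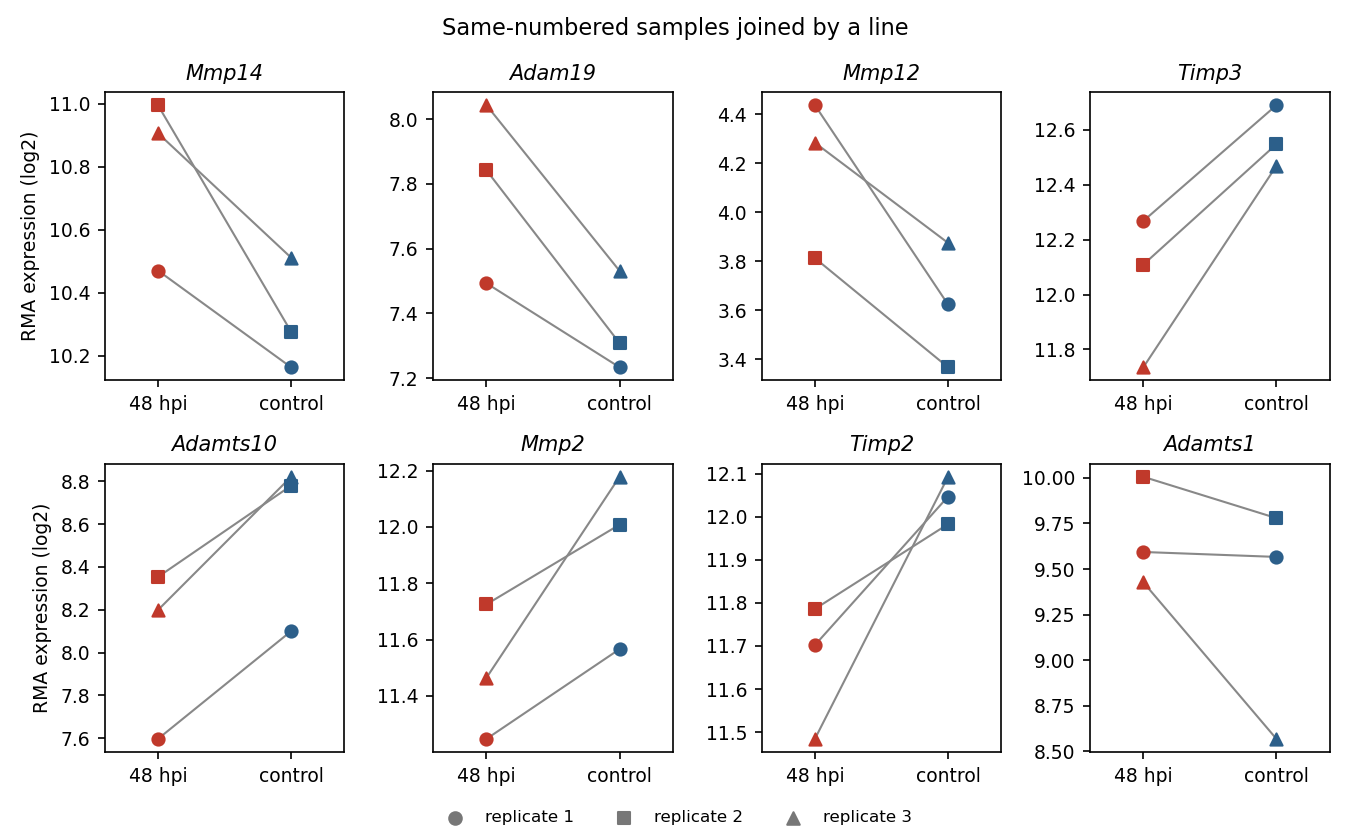
RMA expression (log2, vertical axis, a separate scale per gene) of 8 genes at 48 hpi (left, red) and in control (right, blue), with pools of the same replicate number joined by a line. Mmp14, Adam19, Mmp12, Timp3 and Adamts10 passed only with the block, and all 3 of their lines run the same way. So do those of Mmp2, Timp2 and Adamts1, which passed in neither fit by the probe set used.

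The enzymes work with partners, so 106 measured genes of 6 related lists were counted in the same fit. Of these, 10 rose (9.43%, against 4.97% of all genes) and 3 fell (2.83%, against 1.24%), and the median was 0.03. With the block 19 rose (17.9%, against 8.77%) and 9 fell (8.49%, against 4.64%). Counts by list below stand beside the same shares of all genes. Among 20 other MMP and ADAM family genes, 0 rose and 1 fell, Thsd4 (ADAMTS-like 6), which interacts with fibrillin, at -0.55 ± 0.10 (adjusted p = 0.0346), a call that held only without 48 hpi replicate 2 among the fits that left out 1 pool. Mmp9, or gelatinase B, had values of 7.41, 8.08 and 8.23 at 48 hpi, against 6.36, 7.24 and 7.17 in controls. These did not overlap, but the spread between numbers was wide. The difference of 0.98 ± 0.29 did not pass without the block (adjusted p = 0.123) and passed with it (adjusted p = 0.00178). Mmp9 also passed with the mean of its 2 probe sets (adjusted p = 0.0415) and without both pools numbered 1 (adjusted p = 0.0209). Its probe set that was not used passed without the block. Mmp8, a neutrophil collagenase, was dim in both groups, with values of 4.98, 4.03 and 4.72 at 48 hpi, against 4.16, 4.35 and 4.04 in controls.

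Other inhibitors and regulators gave 2 rises and 0 falls among 19 genes. Slpi, a secreted inhibitor of leukocyte serine proteases, had values of 9.85, 9.74 and 11.07 at 48 hpi, against 7.42, 7.04 and 7.04 in controls (log2 fold change 3.05 ± 0.34, adjusted p = 0.00474). Serpina3n, another serine protease inhibitor, rose by 1.56 ± 0.16 on the log2 scale (adjusted p = 0.00317). Both are inhibitors of serine proteases and not of metalloproteinases. Among 14 activators of zymogens, Plaur, the urokinase receptor, was the 1 gene that rose (1.36 ± 0.27, adjusted p = 0.0399), and it was lost when any 1 pool other than control replicate 3 was left out (adjusted p up to 0.131). Of 8 astacin protease genes and enhancers 0 rose and 1 fell, Pcolce2, an enhancer of procollagen processing, at -0.82 ± 0.11 (adjusted p = 0.00948).

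Genes for shed ligands and receptors gave the largest share of rises among these lists, with 6 of 22 called higher and 0 lower (median 0.16). These are 27.3% and 0%, beside 4.97% and 1.24% of all genes. Ereg, the EGF receptor ligand epiregulin, had values of 6.95, 7.11 and 7.06 at 48 hpi, against 5.37, 4.74 and 3.49 in controls (log2 fold change 2.50 ± 0.42, adjusted p = 0.0229), and 2 of its 3 control values were dim, so the size of this change is poorly fixed. Vcam1, a leukocyte adhesion receptor, rose by 1.02 ± 0.13 (adjusted p = 0.00847) and Tnfrsf1b, a tumour necrosis factor receptor, by 0.98 ± 0.20 (adjusted p = 0.0413). Lower among the 6 were Cd44, the hyaluronan receptor, at 0.93 ± 0.10 (adjusted p = 0.00485), Csf1r, the macrophage growth factor receptor, at 0.93 ± 0.12 (adjusted p = 0.00851), and the endothelial cadherin Cdh5 at 0.71 ± 0.14 (adjusted p = 0.0353). Calls of Ereg (adjusted p up to 0.101), Tnfrsf1b (up to 0.163) and Cdh5 (up to 0.100) were lost in at least 4 of the 6 fits that left out 1 pool, which included those without 48 hpi replicate 1, 48 hpi replicate 3 or control replicate 2. Tnfrsf1b and Cdh5 each had 2 probe sets with opposite signs, and both calls were lost when the probe sets were averaged. The Tnfrsf1b call was also lost after repeated quantile normalization. Csf1r is also on the macrophage marker list and Cdh5 on the endothelial one. Of 23 matrix substrates 1 rose and 1 fell, and 7 rose and 2 fell with the block. Thbs1, a thrombospondin, was the gene that rose (1.21 ± 0.15, adjusted p = 0.00826), and Hapln1, the cartilage link protein that holds aggrecan on hyaluronan and a chondrocyte marker here, was the gene that fell (-0.68 ± 0.14, adjusted p = 0.0449). The Hapln1 call held only without control replicate 1 among the fits that left out 1 pool (adjusted p up to 0.160).

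**Figure D4:**
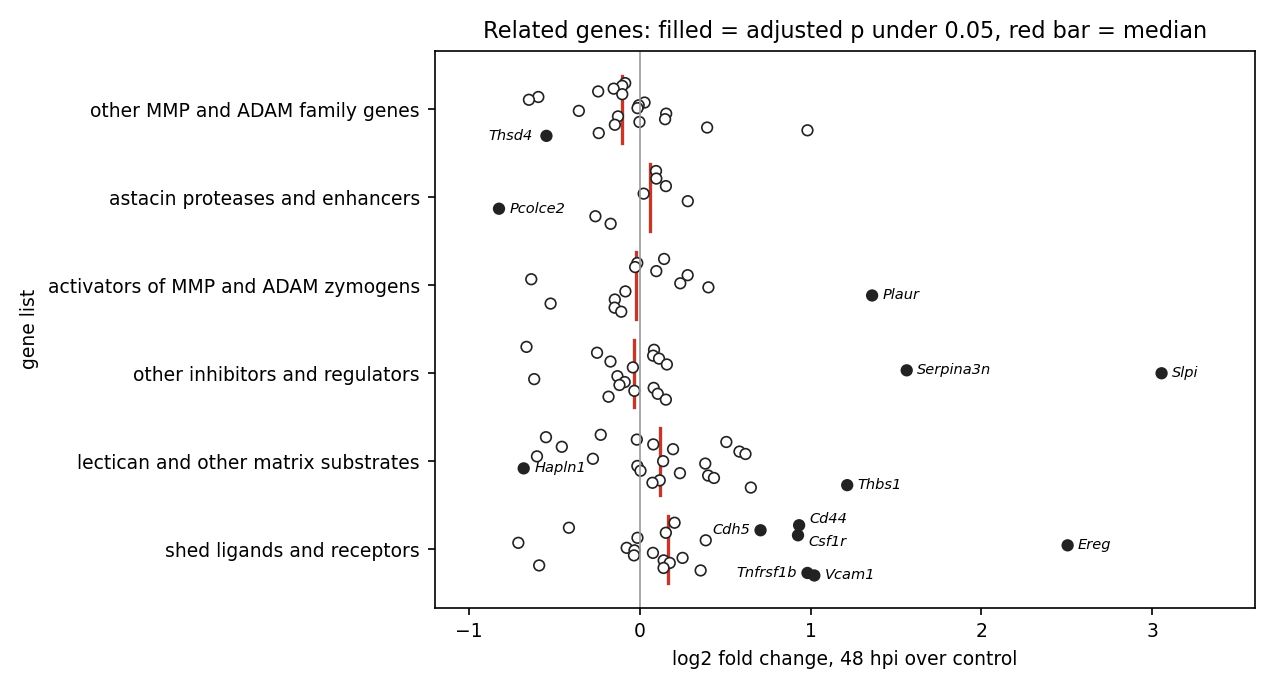
Log2 fold change at 48 hpi over control (horizontal axis) of 106 genes in 6 lists of family members and partners (rows of points, spread vertically for legibility); filled points passed adjusted p 0.05 and are named, and red bars are list medians. Slpi lies at 3.05 and Ereg, whose control mean was dim, at 2.50, while the list medians lie between -0.10 and 0.16.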

How the data were processed

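RNA of 6 tracheal mesenchyme samples was measured on 1 array each. The deposited values are RMA expression on the log2 scale, 1 value per probe set and array; RMA was run by the authors and corrects background, quantile normalizes probes and summarizes each probe set. The submitters' processing notes name Affymetrix Expression Console 1.1, Partek 6.5 and RMA. RMA compresses the folds of dim genes and cannot show a change shared by most genes. Array number limits the precision, and arrays of a group correlated at 0.987 to 0.994 over probe sets.

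Of 45101 probe sets, 64 controls were left out. Platform annotation named exactly 1 gene for 34945 probe sets, more than 1 for 932 and none for 9160, and 34741 were matched by Entrez identifier to RefSeq names. A gene took its probe set with the highest mean, and 21 of the 40 genes had more than 1. The test was limma 3.58.1 (lmFit and eBayes, R 4.3.3), two-sided, with group as the factor, 4 residual degrees of freedom plus 3.21 from the shared spread, and Benjamini-Hochberg adjustment. Errors of fold changes are SEs of the fit and errors of means SDs. Per-sample values are given for genes past the threshold with or without the block and, whatever their result, for Mmp2, Mmp14, Timp2, Timp3, Reck, Adam10, Adam17, Adamts1 and Adamts5, as well as for Mmp8 and Mmp9. From each related list up to 3 called genes in each direction are named with their fold change, and per-sample values are added for Slpi and Ereg. The members, lists and rule were chosen with earlier results of these data known.

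Both groups carry replicate numbers 1 to 3 in the labels, but nothing in them ties a number to a day or batch. After removal of group means, same-numbered samples correlated at 0.62, 0.36 and 0.34 over probe sets, and each sample correlated best with its own number, so the pairing comes from the data. On simulated data for 48 hpi against control over 45037 probe sets, recovery was 16.4% for genes given a 1.5-fold change, 55.2% at 2-fold and 87.9% at 4-fold, and 2 calls were false. The changes were given to 67, 67 and 66 genes above the dim bound, with noise independent between samples. Far fewer genes were changed than the 904 and 226 called higher and lower in the data. These rates therefore need not hold for the listed genes. Alternatives covered the probe set, dim filter, scaling, variance model, threshold, block and each sample left out. Summed marker levels add unlogged values of 1 probe set per gene. Promoter sequences and motif shares come from RefSeq, build GRCm38.p6.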

Additional observations from a re-analysis of the deposited data

How the results depend on the processing

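The counts of 9 genes that rose and 1 that fell were the same after probe sets ending in _x_at or _s_at or dim probe sets were left out, after recentring, repeated quantile normalization and a mean-variance trend, and were 8 and 1 with the mean of all probe sets. Leaving out each pool in turn gave 4 to 7 rises and 0 to 1 fall, and 5 and 0 without both pools numbered 1. Adam12, Timp1 and Mmp19 passed in all 6 of these single-pool fits. The fewest rises, 4, were found without 48 hpi replicate 3, control replicate 2 or control replicate 3. The fall of Reck was lost without 48 hpi replicate 2 or 3 or control replicate 1 or 3. At adjusted p 0.01, 3 rose and 0 fell in limma (unadjusted p under 0.05, 13 and 4). An equal-variance test without a shared spread called 0 and 0, with 10 and 4 at unadjusted p under 0.05, and called 45 of all 18193 genes. The replicate block gave 12 rises and 3 falls, adding the 5 genes named above and losing no call made without it. The related lists, with 10 rises and 3 falls, gave 0 and 0 in the equal-variance test (15 and 9 unadjusted), 19 and 9 with the replicate block, 6 and 1 at adjusted p 0.01, 6 and 2 without both pools numbered 1, and 6 to 9 and 1 to 2 when pools were left out.

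Of 818 values of single genes under an alternative, 699 kept direction and side of the threshold, 95 no longer passed, 8 newly passed and 16 changed sign. All sign changes were in genes that did not pass. Mmp11 was -0.0042 after repeated quantile normalization, and Timp4 was 0.015 and Adam17 -0.070 with the mean of all probe sets. Without both pools numbered 1, Mmp11 was -0.062 and Mmp24 0.024. With single pools left out, values crossed 0 for Mmp11 (-0.088 to 0.13), Mmp16 (-0.27 to 0.067), Mmp24 (-0.10 to 0.053), Timp4 (-0.67 to 0.057), Adam33 (-0.23 to 0.027), Adamts12 (-0.21 to 0.49) and Adamts15 (-0.37 to 0.078). The cause was not tested. Scaling moved the median of all genes by under 0.1. The 6 genes dim in both groups, Mmp7, Mmp10, Mmp12, Adamts7, Adamts8 and Adamts20, are near the limit of these arrays. Of all probe sets tested, 45.0% had a mean under the dim bound, a share of probe sets and not of genes.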
